A study of Rattus norvegicus with 129 samples.

Results

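Liver from vehicle-dosed rats was compared after 5 daily gavages and after 1 gavage, with both sets of livers taken 24 h after the last gavage. The members were chosen by treatment and time in the sample titles, which gave 20 of the 129 rat liver arrays of the series, 10 rats at each time. All 20 were Sprague-Dawley rats, housed individually on rodent chow, that were gavaged with vehicle alone, which was aqueous methylcellulose (0.5%) that also held 1% Tween 80. At each time 5 rats carried numbers of the form 10xx and are titled male, and 5 carried numbers of the form 15xx and are titled female. The labels give no age, feeding state, hour of killing or scan batch, and the 2 times are different animals, so days of gavage, age and day of killing cannot be told apart. Of the 90 arrays of this gavage study, 20 came from rats given phenobarbital and 20 from rats given PCN (pregnenolone-16α-carbonitrile, a steroid that activates the rat pregnane X receptor), each at 100 mg/kg and at the same 2 times, and these were set beside the vehicle values. Vehicle rats killed 6 h after 1 gavage gave a further time point.

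The liver switches between making fat and burning it. After a meal, insulin and the SREBP transcription factors raise the enzymes that turn sugar into fatty acids, and SREBP2 raises those that make cholesterol. Between meals, fatty acids reach the mitochondria through the carnitine shuttle and are broken down there, and the receptor PPARα, which senses fatty acids, raises the genes of the shuttle, of mitochondrial and peroxisomal oxidation and of the Cyp4a fatty acid hydroxylases.

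Deposited array means lay between 168 and 375 and medians between 22.2 and 59.9, and 21.1% to 24.7% of values were at or under 0. The 3′ minus 5′ difference of the beta-actin control probe sets, a measure of RNA integrity, had a median of 1.05 (log2) after 1 dose and 0.97 after 5 doses, with overlapping ranges. The GAPDH controls had medians of 0.58 and 0.56 and the hexokinase controls, which went the other way, of 0.58 and 0.74, also with overlapping ranges. Before normalisation they were at 0.57 and 0.60 and at 0.64 and 0.63, so the direction of both depends on the normalisation. No pair of the 90 arrays held identical values. Cyp2c11, a male-biased enzyme, was at 9.32 to 10.59 in the 10xx rats and 7.13 to 8.72 in the 15xx rats, and female-biased Cyp2c12 at 7.66 to 9.67 and 10.93 to 11.30, so that every rat lay on the side of its title. The mean of 19 measured hepatocyte markers ranged from 12.00 to 12.07 after 1 dose and from 12.02 to 12.12 after 5 doses, and none of the 19 was called. Several of the 19 lie near the top of the scale, which quantile normalisation fixes (Alb was at 13.57 in both the median and the highest rat), so that this mean can vary little. Rat 1012, a 10xx rat after 5 doses, stood farthest from the others on the second principal component (-36.4, against -17.5 to 21.8 in the other 19) and had the lowest array mean, so counts are also given without it.

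Levels are log2(value + 16) after quantile normalisation, with a floor at 4.00, and a gene was called where its Benjamini-Hochberg adjusted p in limma, with the number series as a block, was under 0.05. Of 4736 genes read, 107 were called (2.26%), 58 higher after 5 doses (1.22%) and 49 lower (1.03%). Over probe sets the count was 179 of 8740 (2.05%), with 94 higher (1.08%) and 85 lower (0.973%), and the median difference over all genes was 0. Genes of fatty acid oxidation were among those higher, and genes of fatty acid, glucose-to-fat and cholesterol synthesis among those lower. The 2 largest rises were Ech1 and Eci1, both of fatty acid oxidation, and the largest fall was Scd, the desaturase that makes monounsaturated fatty acids. Fold changes are on the log2(value + 16) scale and understate the change of dim genes. In 7 genes every rat after 5 doses lay above every rat after 1 dose (0.148% of genes), and in 5 every rat lay below (0.106%). The 7 were Ech1, Eci1, Cpt2, Slc25a20, Cpt1a, Decr1 and Hadha, all of fatty acid oxidation, and the 5 were Pklr, Me1, Dhcr7, Tkt and Nme1, a nucleoside diphosphate kinase named after its values were seen. In bulk liver, fewer cells of a type and less RNA per cell cannot be told apart.

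Ech1, an isomerase that prepares unsaturated fatty acids for oxidation, had levels from 5.61 to 8.62 after 1 dose (median 8.00) and from 9.41 to 11.46 after 5 doses (median 10.26). No rat of one time reached the range of the other. Its difference was 2.58 ± 0.34 (SE), a 5.99-fold rise (adjusted p 6.7e-04, limma). Eci1, the mitochondrial enoyl-CoA isomerase, ranged from 8.14 to 10.03 (median 9.23) after 1 dose and from 10.59 to 12.44 (median 11.56) after 5 doses, again without overlap. The rise was 2.29 ± 0.29, or 4.89-fold (adjusted p 5.1e-04, limma). All 4 probe sets of Eci1 were higher and 2 were called; with their mean in place of the brightest one the difference was 1.22 and still called.

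Of the 10 largest rises, 3 were genes of the carnitine shuttle, for which no separate list was tested. Cpt1a, which loads long-chain fatty acids onto carnitine and is the control point of oxidation, went from 9.09 to 10.28 (median 10.02) after 1 dose to 10.32 to 11.37 (median 10.98) after 5. Cpt2, which unloads them inside the mitochondrion, went from 8.05 to 8.99 (median 8.71) to 9.10 to 10.21 (median 9.80). Slc25a20, the carrier across the inner membrane, went from 6.95 to 8.22 (median 7.87) to 8.32 to 9.51 (median 8.63). In each of the 3 the lowest rat after 5 doses lay above the highest after 1 dose. The differences were 1.00 ± 0.16, 1.06 ± 0.15 and 1.01 ± 0.18 in that order (adjusted p 0.0027, 0.0014 and 0.0071, limma), or 2.00-fold, 2.09-fold and 2.01-fold. Within 15xx rats alone none of the 3 was called (adjusted p 0.23, 0.17 and 0.23, limma).

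**Figure D1:**
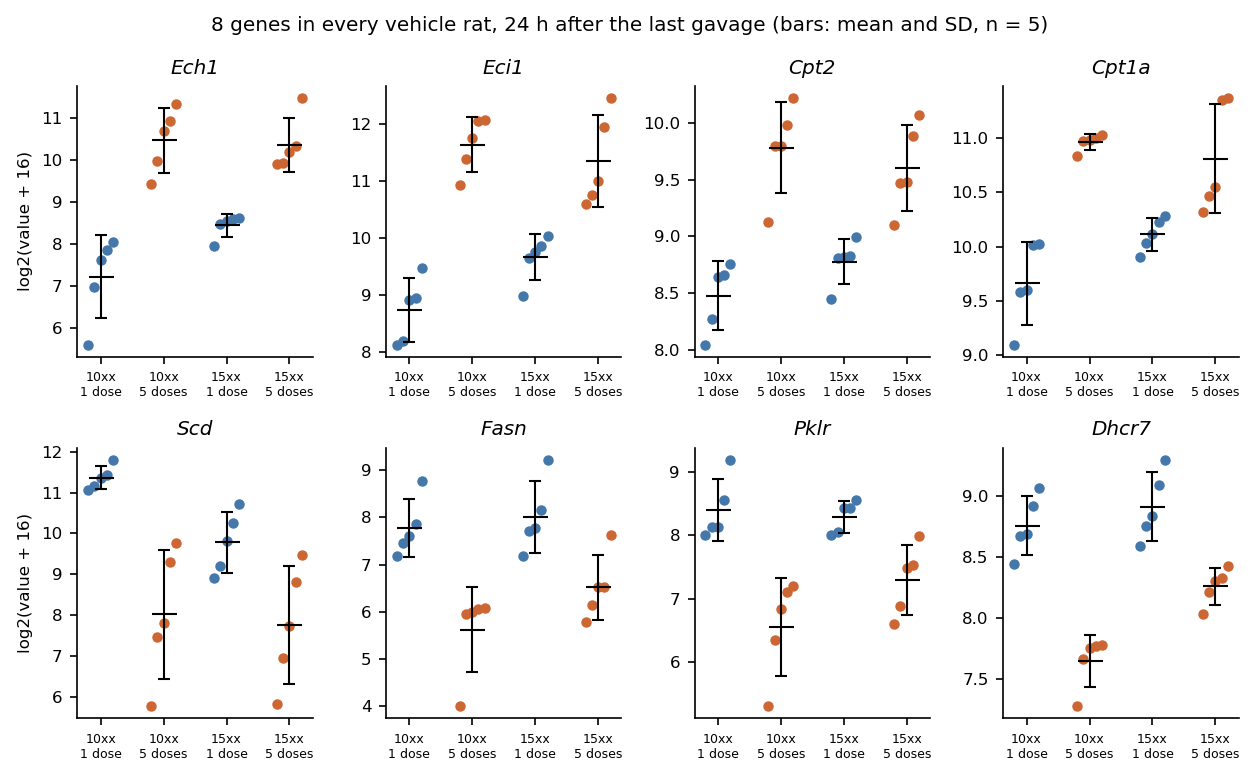
Level of 8 genes in each vehicle rat, as log2(value + 16) on the vertical axis of each panel, by number series and doses; points are rats, bars the mean and SD of 5 rats, blue after 1 dose and orange after 5. The 4 oxidation genes of the upper row are higher after 5 doses in both series (Eci1 medians 9.23 and 11.56), and the 4 synthesis genes of the lower row are lower (Scd medians 10.89 and 7.77).

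The steps of mitochondrial oxidation were read from a list of 18 measured genes, which includes Cpt1a, Cpt2, Slc25a20 and Eci1 from above. Of the 18, 10 rose (55.6%, beside 1.22% of all genes) and none fell, with a median difference of 0.34 against 0 over all genes. Both subunits of the trifunctional protein, which carries out the last steps on long chains, were among them, Hadha at 0.66 ± 0.08 and Hadhb at 0.82 ± 0.14. Acaa2, the thiolase of the final step, rose by 0.82 ± 0.12, and Decr1, which handles unsaturated chains, by 0.86 ± 0.10. The acyl-CoA dehydrogenases of the first step differed less: Acadvl (very long chains) rose by 0.38 and Acads (short chains) by 0.30, while Acadl and Acadm were at 0.31 and 0.22 and were not called (adjusted p 0.13 and 0.17, limma). The 8 members not called had differences from -0.15 to 0.31, among them the electron carriers Etfa (0.05) and Etfdh (0.16) and the ketone enzyme Bdh1 (-0.07). Without rat 1012 the count was again 10 of 18, and 8 rose under median scaling.

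Of 18 measured targets of PPARα, 8 rose (44.4%, beside 1.22% of all genes) and none fell, with a median of 0.55. This list shares Cpt1a, Cpt2, Decr1 and Eci1 with the oxidation list. Cyp4a1, a fatty acid omega-hydroxylase and a classical PPARα target in rat liver, went from 8.07 to 10.01 (median 9.11) to 9.61 to 11.20 (median 10.35). After 5 doses 9 of 10 rats lay above every rat after 1 dose, and the rise was 1.40 ± 0.20 (adjusted p 0.0013, limma). Its probe sets share sequence with other Cyp4a genes, so that the level may be theirs in part. Acot2, a mitochondrial thioesterase, rose by 1.08 ± 0.24 (adjusted p 0.021, limma), and 1 of its 2 probe sets was called. Pex11a, which divides peroxisomes, rose by 0.98 ± 0.18 and Acaa1b, a peroxisomal thiolase, by 0.98 (adjusted p 0.0072 and 0.038, limma). Other well-known targets were not called: Ehhadh, the peroxisomal bifunctional enzyme, was at 0.64 with an adjusted p of 0.056, Pdk4 at 0.45, Cd36 at 0.35 and the fatty acid binding protein Fabp1 at -0.07 (limma). Outside the list, 3 genes of peroxisomal fatty acid handling rose as well, Decr2 by 0.68, Hacl1 by 0.86 and Slc27a2 by 0.43, named after their values were seen. Without rat 1012 the count of PPARα targets was 7, and it was also 7 under median scaling.

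The genes that turn sugar into fatty acids moved the other way. Of 14 measured in the list of fatty acid synthesis and desaturation, 6 fell (42.9%, beside 1.03% of all genes) and none rose. In this list 13 of 14 had a negative difference, and the median was -0.95. Scd went from 8.91 to 11.80 (median 10.89) after 1 dose to 5.78 to 9.77 (median 7.77) after 5. The spread after 5 doses was wide, and 7 of the 10 rats lay under every rat after 1 dose. The difference was -2.68 ± 0.51, a 6.42-fold fall (adjusted p 0.0091, limma). Both probe sets of Scd were called.

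Fasn, the fatty acid synthase, went from 7.17 to 9.22 (median 7.74) to 4.00 to 7.62 (median 6.07), with 9 of 10 rats under the range after 1 dose. Rat 1012 was at the floor of 4.00, and the difference was -1.83 ± 0.33 (adjusted p 0.0067, limma); with a pseudocount of 1 it was -2.42 and no longer called (adjusted p 0.058, limma). Acly, which makes cytosolic acetyl-CoA from citrate, went from 9.56 to 12.00 (median 10.80) to 8.13 to 10.44 (median 9.17), a difference of -1.80 ± 0.30 (adjusted p 0.0042, limma). Pklr, the liver pyruvate kinase at the end of glycolysis, went from 8.00 to 9.20 (median 8.28) to 5.30 to 7.99 (median 6.99) without overlap, a difference of -1.43 ± 0.26. Me1, which makes NADPH for synthesis, also separated the groups, from 7.09 to 8.41 (median 7.77) to 6.33 to 7.08 (median 6.82), with a difference of -0.90 ± 0.16; with the mean of its 5 probe sets it was no longer called.

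The last gene called in this list was Insig1, an SREBP target that holds SREBP in the endoplasmic reticulum. It fell by 1.00 on the log2 scale (SE 0.22, adjusted p 0.018, limma), and 1 of its 2 probe sets was called. The transcription factor gene Srebf1 itself was at -1.06 and was not called (adjusted p 0.11, limma), nor was Pnpla3 (-1.25) or the carboxylases Acaca (-0.28) and Acacb (-0.04). Of genes outside the list, Tkfc, which phosphorylates products of fructose and was named by the size of its fall, differed by -1.17 ± 0.20. Slc25a1, the mitochondrial citrate carrier (-0.48), Pdhb, a subunit of pyruvate dehydrogenase (-0.49), and Acsl5, which activates fatty acids (-0.58), were called lower and were named after their values were seen, from no fixed list. Fabp5, a fatty acid binding protein, had the second largest fall of the 4736 genes, from 7.22 to 9.74 (median 8.41) to 5.81 to 7.46 (median 6.52), or -1.87 ± 0.32 (adjusted p 0.0049, limma).

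Cholesterol synthesis had 15 measured genes, of which 6 fell (40%, beside 1.03% of all genes) and none rose. All 15 had a negative difference, with a median of -0.74. Dhcr7, the last enzyme of the pathway, went from 8.44 to 9.30 (median 8.79) to 7.28 to 8.43 (median 7.90). The highest rat after 5 doses lay just under the lowest after 1 dose, and the difference was -0.88 ± 0.11 (adjusted p 5.1e-04, limma). Lss, which closes the sterol rings, differed by -0.70 ± 0.09, the squalene synthase Fdft1 by -0.53, the sterol dehydrogenase Nsdhl by -0.59 and Fdps, which makes farnesyl diphosphate, by -0.97 ± 0.25 (adjusted p 0.049, limma). Insig1, a member of both synthesis lists, was the sixth. Fdps was not called in 19 of 30 alternatives. Several members had larger differences with more spread and were not called, namely Sqle (-1.18), Msmo1 (-1.08), Idi1 (-1.07) and Cyp51 (-0.97). The count of 6 became 3 under median scaling and 3 without rat 1012.

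Since members of both synthesis lists fell, the start regions of those called were read in the RefSeq promoters of build GRCr8, from 250 bases before to 50 after the gene start. The CCAAT box, bound by NF-Y beside SREBP at many sterol genes, was searched on both strands, where the reverse strand reads ATTGG. It was in 10 of 13 promoters of the cholesterol list and in 8 of 11 of the fatty acid synthesis list, against 10363 of all 27457 promoters (37.7%). Among members called lower it was in 4 of 5 cholesterol genes with a promoter entry, Fdps, Insig1, Lss and Nsdhl but not Dhcr7, and in 2 of 5 of the fatty acid list, Acly and Insig1. The stretches from base -210 to base -41 of these 5 genes are shown with each box in capitals, since most promoters of both synthesis lists hold the box. It was not particular to them, with 9 of 11 in the endoplasmic reticulum list and 11 of 19 in the list of conjugation and transport. Of all genes called lower, 17 of 39 with a promoter entry held it, and of all called higher 14 of 45. It was one of 15 motifs searched. Single exact forms of the sterol response element and of DR1, the element PPARα binds, are in 28 and 16 of all promoters. Among the 3879 promoters of genes on the array they are in 0 and 1, so that their absence from called genes was all but fixed beforehand.
Fdps, chr2:176804857-176805026, minus strand: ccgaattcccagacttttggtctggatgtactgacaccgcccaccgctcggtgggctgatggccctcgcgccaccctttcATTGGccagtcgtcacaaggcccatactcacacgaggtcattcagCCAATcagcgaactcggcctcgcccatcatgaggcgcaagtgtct
Insig1, chr4:8057810-8057979, minus strand: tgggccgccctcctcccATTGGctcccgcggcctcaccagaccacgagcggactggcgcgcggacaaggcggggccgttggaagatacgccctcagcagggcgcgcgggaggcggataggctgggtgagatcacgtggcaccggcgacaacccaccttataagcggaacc
Lss, chr20:12118271-12118440, minus strand: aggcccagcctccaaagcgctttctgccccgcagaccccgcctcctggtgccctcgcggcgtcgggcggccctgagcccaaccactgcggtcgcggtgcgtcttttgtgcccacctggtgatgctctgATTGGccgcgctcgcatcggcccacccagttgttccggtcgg
Nsdhl, chrX:155817150-155817319, plus strand: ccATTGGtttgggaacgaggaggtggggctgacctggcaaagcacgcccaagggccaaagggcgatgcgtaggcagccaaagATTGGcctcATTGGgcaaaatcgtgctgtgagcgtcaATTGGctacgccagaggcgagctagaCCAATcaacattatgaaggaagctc
Acly, chr10:85963672-85963841, minus strand: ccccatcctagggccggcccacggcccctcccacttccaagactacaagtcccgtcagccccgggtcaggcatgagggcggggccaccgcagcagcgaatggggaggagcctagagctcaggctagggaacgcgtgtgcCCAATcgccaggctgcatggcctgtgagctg
Nsdhl held 5 boxes in this stretch, Fdps 2 and the other three 1 each. The box was in 4 of 15 promoters of the mitochondrial oxidation list and in 7 of 16 of the PPARα targets, and a match is a description of letters, not of binding.

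**Figure D2:**
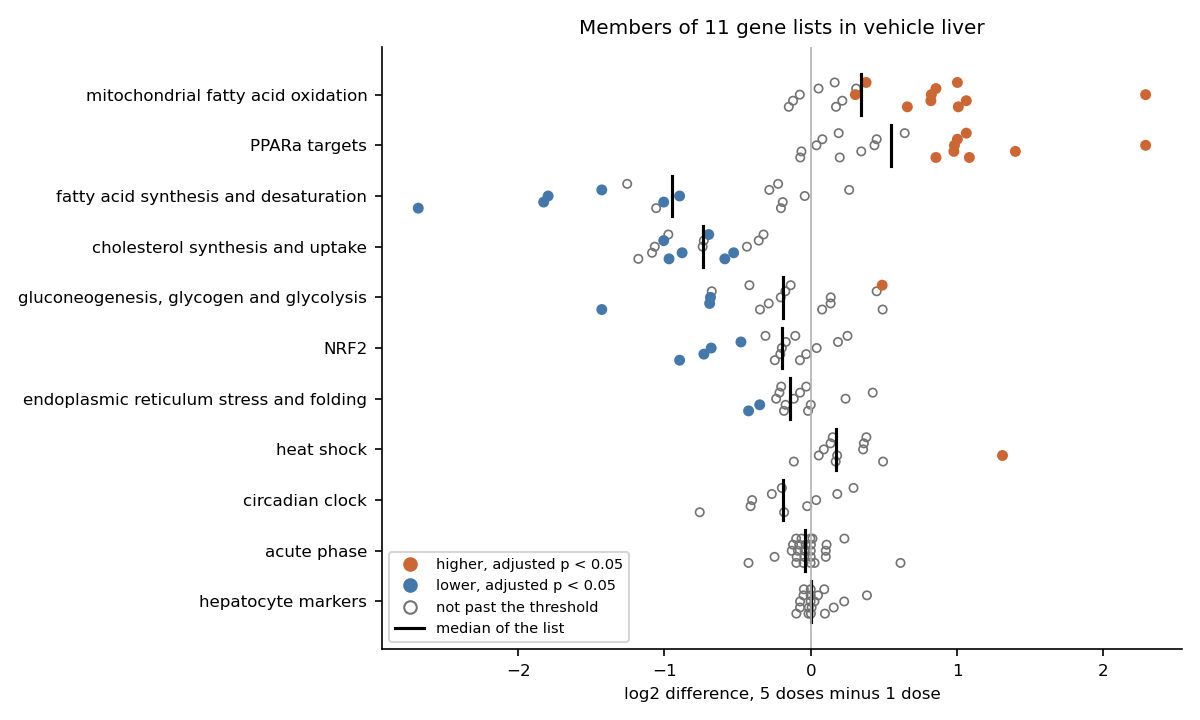
Log2 difference (5 doses minus 1 dose, horizontal axis) of every measured member of 11 gene lists; filled points passed adjusted p 0.05 (orange higher, blue lower), open points did not, and the black bar is the list's median. The oxidation and PPARα lists lie to the right (10 and 8 members called), the synthesis lists to the left (6 and 6 called), and the clock, acute phase and hepatocyte lists hold no called member. Over all genes 2.26% were called.

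Glucose handling was called in both directions, with 1 of 16 measured members higher and 3 lower (25% called, beside 2.26% of all genes). Pck1, the first committed enzyme of gluconeogenesis, went from 10.52 to 11.65 (median 10.98) to 10.93 to 12.03 (median 11.66), a rise of 0.49 ± 0.11 (adjusted p 0.025, limma). Pklr was the largest fall of this list as well; Pygl, the liver glycogen phosphorylase, differed by -0.69 ± 0.16 and Pfkfb1, which sets the level of the glycolytic activator fructose 2,6-bisphosphate, by -0.69 ± 0.15. Pck1 was not called without rat 1015, the highest of the 10, with the spread of all 18 groups of the gavage study, or without the number series term. Of the 4 probe sets of Pfkfb1, 3 were lower and 1 was called. Pfkfb1 was not called with their mean or without the number series term, and Pygl was not called under median scaling. Of 28 measured genes of amino acid breakdown and the urea cycle only Asl, which splits argininosuccinate, was called (3.57%, beside 2.26% of all genes). Asl rose by 0.83 ± 0.16, and Tat and Sds were at -0.07 and 0.08.

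Of 14 measured genes of folding and stress in the endoplasmic reticulum 2 fell (14.3%, beside 1.03% of all genes) and none rose. The disulfide isomerases Pdia6 (-0.42 ± 0.08) and Pdia3 (-0.35 ± 0.07) were called, with a list median of -0.14, while the stress chaperone Hspa5 was at -0.12. Outside the list Erp29 (-0.57), the translocon subunit Sec61b (-0.42), the cyclophilin Ppib (-0.36) and the glycosylation subunit Rpn2 (-0.28) were also called, named after their values were seen. Hsph1, a cytosolic co-chaperone, was the single called member of 12 heat shock genes (8.33%, beside 1.22% of all genes called higher). It went from 5.06 to 6.92 (median 5.75) to 6.09 to 8.37 (median 6.95), with 5 of 10 rats above every rat after 1 dose. Its rise was 1.31 ± 0.29 (adjusted p 0.021, limma). Of the 2 probe sets of Hsph1, both were higher and 1 was called. Hsp90ab1 (0.49) and Dnajb1 (0.38) lay just outside the threshold, at adjusted p 0.0503 and 0.0514 (limma).

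The Hsph1 promoter holds a heat shock element, alternating GAA and TTC units spaced by any 2 bases (GAA, TTC, GAA, searched on both strands), which 202 of 27457 promoters hold (0.736%) and 4 of 11 of the heat shock list. Its 150 bases before the gene start are shown with the element, which lies on the reverse strand and begins at base -36, in capitals.
Hsph1, chr12:10427218-10427367, plus strand: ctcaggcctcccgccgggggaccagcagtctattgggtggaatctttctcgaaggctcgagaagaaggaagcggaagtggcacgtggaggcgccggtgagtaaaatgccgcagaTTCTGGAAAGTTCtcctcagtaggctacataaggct

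Lists of foreign compound metabolism, which these vehicle rats were the controls for, had called shares of 7.69% (phase 1), 9.52% (conjugation and transport) and 26.7% (NRF2 targets), beside 2.26% over all genes. Of 13 measured phase 1 enzymes under the receptors CAR and PXR only Cyp3a23-3a1 was called, from 10.35 to 11.32 (median 10.87) to 10.63 to 11.77 (median 11.41), a rise of 0.52 ± 0.12 (adjusted p 0.029, limma). It was not called in 8 of 30 alternatives, its probe sets share sequence with other Cyp3a genes, and Cyp2b2 was at 0.12. Of 15 measured NRF2 targets, genes of oxidative defence, 4 fell: Me1, the pentose phosphate enzyme Tkt (-0.73 ± 0.12), the aflatoxin aldehyde reductase Akr7a3 (-0.68 ± 0.13) and the epoxide hydrolase Ephx1 (-0.48). Me1 and Tkt also supply NADPH and sugars for synthesis, and Nqo1, Gclc, Hmox1 and Txnrd1 were at -0.25, 0.19, -0.03 and 0.04 and were not called. Gstm1 fell by 0.47 on the log2 scale (SE 0.10). Abcb1b, a drug efflux pump, rose from 4.00 to 4.56 (median 4.06) to 4.18 to 5.48 (median 4.84), with 5 rats at the floor, so that its size is uncertain.

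Genes of bile handling showed single changes. Abcb4, which puts phospholipid into bile, rose by 0.89 ± 0.15 and was named after its value was seen. Slc10a2, the sodium-dependent bile acid transporter that bile ducts and gut express, differed by -0.92 ± 0.16, with 1 of 2 probe sets called. It went from 6.07 to 7.11 (median 6.56) to 4.93 to 6.36 (median 5.68). Cyp7a1, the rate-limiting enzyme of bile acid synthesis, was at -1.38 ± 0.64 and was not called (adjusted p 0.39, limma). Its levels were from 4.84 to 9.77 and from 4.00 to 8.81, and only 1 of its 2 probe sets was lower. Mmp14, a membrane matrix protease, rose by 0.57 ± 0.09. It was the single called member of 20 collagen and matrix genes (5%, beside 2.26% of all genes).

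No member was called among 10 clock genes, 26 acute phase genes, 18 cell cycle genes, 31 respiratory chain genes, 37 ribosomal protein genes or 23 proteasome genes. With 2.26% of all genes called, lists of this size, like the marker lists below, would often hold no called member. The clock gene Dbp differed by -0.41 ± 0.86, with levels from 4.00 to 10.49 after 1 dose, so that only a large difference could have been called. None was called among markers of other cells either: 10 of macrophages, 5 of endothelium, 11 of stellate cells and fibroblasts, 7 of bile ducts, 12 of lymphocytes and neutrophils, 4 of blood cells, 5 of adipocytes and 12 of muscle and pancreas. Their mean levels overlapped between the times, for example 7.36 to 8.10 and 7.54 to 7.95 for macrophage markers and 6.00 to 6.90 and 6.06 to 6.61 for stellate cell and fibroblast markers. The median rat was at the floor for 13 of these 66 markers, where a fall could not be measured. These were 3 of 5 of adipocytes, 3 of 12 of lymphocytes and neutrophils and 3 of 12 of muscle and pancreas. The rest were 2 of 11 of stellate cells and fibroblasts and 1 each of macrophages and endothelium. Other markers were bright, with medians of 10.11 for Krt18 and 8.82 for Krt8 (bile ducts), 9.57 for Amy2a3 (pancreas) and 9.19 for Lep (adipocytes). Whether such signal came from the cells named was not tested, so these lists may miss a change in those cells.

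Each rat's list means show how far single animals followed the pattern. As a deviation from the mean of all 20 rats, the mean of the 18 oxidation genes ranged from -0.52 to -0.04 after 1 dose and from -0.05 to 0.56 after 5 doses. The mean of the 14 fatty acid synthesis genes ranged from 0.00 to 1.11 and from -0.89 to 0.17. Both ranges overlapped only at their edges, while the cholesterol list overlapped more widely, from -0.16 to 0.95 and from -1.06 to 0.45. These means are built from genes that were called on the same rats and are given as a description.

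**Figure D3:**
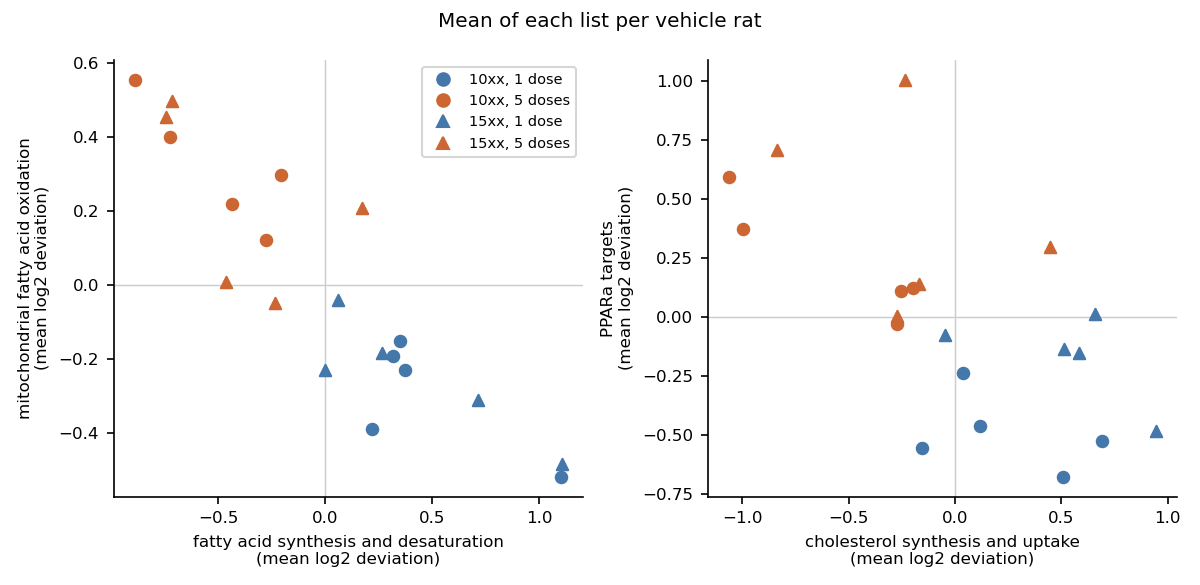
Mean log2 deviation of 2 pairs of gene lists in each vehicle rat (synthesis lists on the horizontal axes, oxidation and PPARα lists on the vertical axes; blue 1 dose, orange 5 doses, circles 10xx, triangles 15xx). In the left panel rats after 1 dose lie to the lower right and most rats after 5 doses to the upper left (fatty acid synthesis from 0.00 to 1.11 and from -0.89 to 0.17); in the right panel the cholesterol means of the 2 times overlap (from -0.16 to 0.95 and from -1.06 to 0.45).

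The 2 number series had unequal counts. Within the 10xx rats 89 probe sets were called (1.02%), 47 higher (0.538%) and 42 lower (0.481%); within the 15xx rats 2 were called (0.0229%), both lower, while 737 had an unadjusted p under 0.05. All 179 probe sets of the comparison over both series had the same sign in each series, which the choice of these probe sets over both series favours, and the median absolute difference was 0.57 in 10xx and 0.51 in 15xx rats. The test of the difference between the series called no probe set (0.00%; limma, smallest adjusted p 0.13; 594 at unadjusted p under 0.05), so the unequal counts do not show that the series differ. Eci1 differed by 2.89 in 10xx and 1.68 in 15xx rats, Ech1 by 3.24 and 1.92, Scd by -3.34 and -2.02 and Dhcr7 by -1.11 and -0.65. The 2 probe sets called in 15xx rats were one of Lss (-0.81) and one of 2 for Hpgds, a prostaglandin D synthase (-1.17, against 0.04 in 10xx rats); the other Hpgds probe set did not pass over both series (-0.18). Counts within a series depended on the fit: with the 10 arrays of that series alone, 25 were called in 10xx and 0 in 15xx rats, and with the spread of all 18 groups 139 and 58. Without rat 1511 the 15xx count was 25, and without rat 1008 the 10xx count was 48.

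The same step from 1 to 5 doses was available in rats that share no array with the vehicle rats. In PCN rats 543 probe sets were called (6.21%), and most probe sets called in vehicle rats had the same sign: of the 94 probe sets higher in vehicle rats 89 were higher in PCN rats and 54 were called there (background 3.49% higher), and of the 85 lower 78 were lower and 43 called (background 2.72% lower). Eci1 differed by 2.14 in PCN rats, Ech1 by 1.75, Cpt2 by 0.82, Scd by -3.45, Pklr by -1.16 and Dhcr7 by -1.08, all called. Other genes called in vehicle rats were not called in PCN rats, among them Cyp4a1 (0.55), Acot2 (0.35), Me1 (-0.14), Tkt (-0.18) and Insig1 (-0.76). Mmp14, higher in vehicle rats, was at -0.16 in PCN rats and was not called. None of these genes, Mmp14 included, passed the test of vehicle against PCN (limma, adjusted p 0.10 or more). A difference between the treatments was thus not shown for them. The test of vehicle against PCN in this step called 64 probe sets (0.732%), of which 4 were among the 94 and 4 among the 85. Cyp3a23-3a1, a PXR target whose median 24 h after 1 dose was 10.87 in vehicle and 12.67 in PCN rats, was one, at 0.52 in vehicle and -0.13 in PCN rats (difference 0.64, adjusted p 0.024, limma). Akr7a3 was another, at -0.68 in vehicle and 0.69 in PCN rats.

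In phenobarbital rats the step called 99 probe sets (1.13%). Of the 94 probe sets higher in vehicle rats 59 were higher and 3 called (background 0.721% higher), and of the 85 lower 61 were lower and 2 called (background 0.412% lower), with 3 called the opposite way. The test of vehicle against phenobarbital called 129 probe sets (1.48%), 28 of the 94 and 18 of the 85. Eci1 was among them, at 2.29 in vehicle and -0.24 in phenobarbital rats (difference 2.53, adjusted p 9.5e-04, limma), as were Ech1 (2.58 and 0.31), Cyp4a1 (1.40 and -0.45), Scd (-2.68 and 0.37) and Pklr (-1.43 and 0.00). Cpt1a (1.00 and 0.55) and Dhcr7 (-0.88 and -0.66) were not. The 179 probe sets were chosen on the vehicle values, so their vehicle differences are not an even measure beside those of treated rats.

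**Figure D4:**
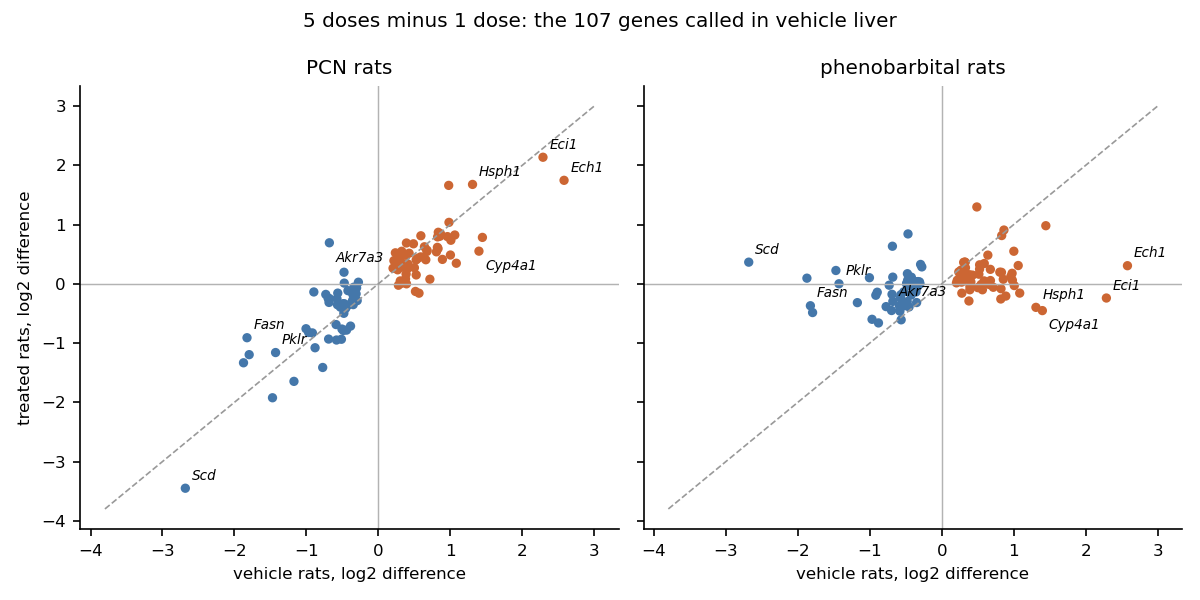
Log2 difference, 5 doses minus 1 dose, of the 107 genes called in vehicle rats (horizontal axes) against the same difference in PCN or phenobarbital rats (vertical axes); the dashed line marks equal values. In PCN rats 55 of the 58 higher and 45 of the 49 lower genes kept the direction, and in phenobarbital rats 41 and 31 did.

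Levels at all 3 times show where the 2 vehicle groups stood. Eci1 had a median of 10.76 in the vehicle rats 6 h after 1 gavage (9 rats, without rat 1003, whose deposited values were displaced by 1 row over much of the table), 9.23 at 24 h and 11.56 after 5 doses. Cpt1a was at 10.84, 10.02 and 10.98 and Hsph1 at 8.18, 5.75 and 6.95. Scd had medians of 8.15, 10.89 and 7.77, Dhcr7 of 7.79, 8.79 and 7.90, and Me1 of 6.79, 7.77 and 6.82. For these 6 genes, picked after their values were seen, the group 24 h after 1 gavage stood at the end of the order, low for Eci1, Cpt1a and Hsph1 and high for Scd, Dhcr7 and Me1. Of the 37 named genes that were called, 33 had a 6 h median on the same side of the 24 h median as the 5-dose median; both steps share the 24 h rats. For Fasn and Acly the 6 h median lay nearer to the 24 h than to the 5-dose median. The 3 medians were 7.61, 7.74 and 6.07 for Fasn and 10.51, 10.80 and 9.17 for Acly. The same held for other called genes, among them Fabp5 (8.16, 8.41 and 6.52), Insig1 (10.08, 10.19 and 9.34) and Pim3 (7.07, 7.22 and 8.11). A 6 h median on the 5-dose side was thus not always near the 5-dose median. The 6 h rats were killed at another interval after the gavage, the hour of day was not given, and the differences from them were not tested here.

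Phenobarbital rats 24 h after 1 gavage already had an Scd median of 7.67 and a Pklr median of 6.85, against 10.89 and 8.28 in vehicle rats, and 8.45 and 6.91 after 5 doses. PCN rats started from 8.94 and 7.67 and ended at 5.99 and 6.61. For Eci1 the medians after 1 and 5 doses were 9.40 and 11.75 in PCN rats and 10.17 and 10.12 in phenobarbital rats, beside 9.23 and 11.56 in vehicle rats.

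**Figure D5:**
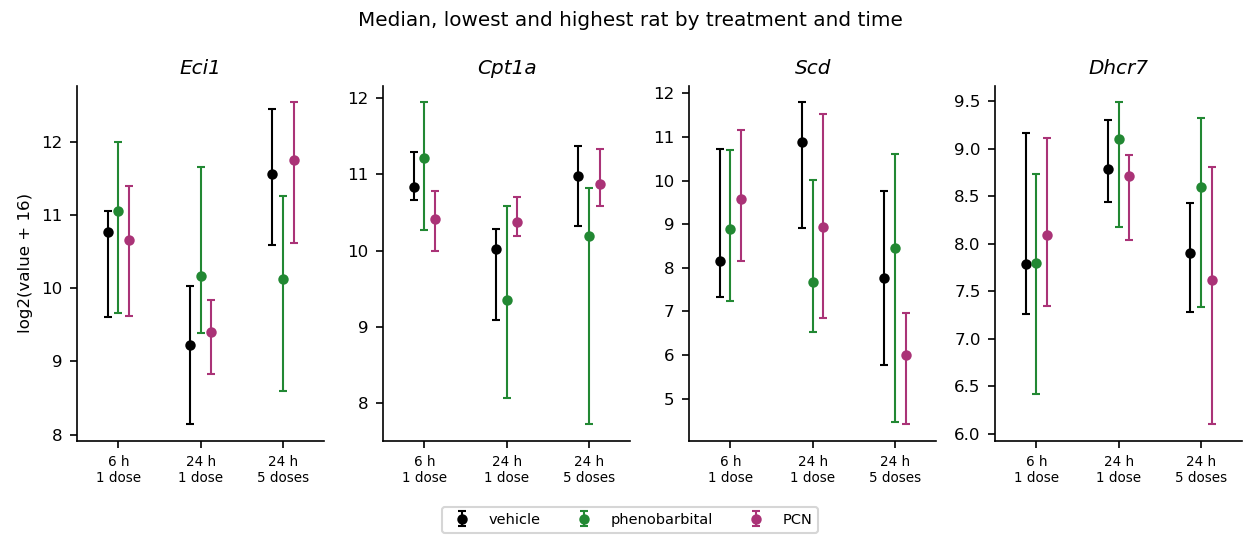
Median (point), lowest and highest rat (bar) of 4 genes, as log2(value + 16), at 6 h and 24 h after 1 dose and 24 h after 5 doses in vehicle (black), phenobarbital (green) and PCN (purple) rats; 10 rats each, 9 for vehicle at 6 h. In vehicle rats Eci1 and Cpt1a are lowest (9.23 and 10.02) and Scd and Dhcr7 highest (10.89 and 8.79) at 24 h after 1 dose.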

How the data were processed

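The authors deposited one value per probe set and array, an intensity on a linear scale with negative values; the software that made it is not given in the sources used here. The table of the gavage study held 8799 probe sets, of which 8740 were tested after 59 controls were left out. Symbols came from the platform annotation, updated through RefSeq: 7006 tested probe sets had 1 symbol, 308 several and 1426 none, and where a gene had several, the one with the highest mean over the 20 rats stood for it. The 90 arrays were quantile normalised as deposited, and negative values were then set to 0. On log2(value + 16), limma 3.58.1 (R 4.3.3) was run two-sided, with Benjamini-Hochberg adjustment over all tested probe sets. Rats were separate animals, 5 per sex and time per the labels, and the number of arrays limits the precision. The fit was tested on simulated data. The members and gene lists were chosen with earlier results of these data known. Genes named were 16 key genes, the 10 largest rises and falls called, and up to 3 called members per list; others are said to be named after their values were seen or are members of lists described. Figures used Python 3.11.15, pandas 2.3.3 and matplotlib 3.10.9.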

Additional observations from a re-analysis of the deposited data

Results flagged for a closer look

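Among the 45 genes followed in 4 groups of 5 rats, 12 of 180 groups had one rat far from its nearest neighbour relative to the group's range; chance gives about 1 in 20 such groups. Among 10xx rats after 1 dose these were Abcb1b in rat 1006 (4.12, the others at the floor), Cyp7a1 in rat 1007 (4.84) and Igfbp2, an IGF binding protein, in rat 1010 (6.15). Among 10xx rats after 5 doses they were Fasn in rat 1012 (4.00, at the floor) and, in rat 1015, Acot2 (7.11), Pck1 (12.03) and Dhcr7 (7.28). Among 15xx rats after 1 dose they were Ech1 in rat 1507 (7.96), Akr7a3 (7.84) and Fdps (10.33) in rat 1508 and Slc10a2 in rat 1506 (6.27). Among 15xx rats after 5 doses the one was Ech1 in rat 1514 (11.46), the highest Ech1 level of all 20 rats.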

How the results depend on the processing

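The vehicle count of 179 probe sets became 111 under median scaling and 117 without the number series term, 266 with all 18 groups (126 higher and 140 lower, a higher share of 47.4%), and 135 (without rat 1015) to 221 (without rat 1512) when 1 rat was left out. Within 10xx rats the count of 89 became 50 under median scaling, 139 with all 18 groups and 25 with those 10 arrays alone, where the higher share went from 52.8% to 60% under median scaling and 68% in the 10-array fit; leaving out 1 rat gave 48 to 126 (58, 48, 58, 54 and 56 without 1006, 1008, 1009, 1012 and 1013; higher share 64.8% without 1012). Within 15xx rats the count of 2 became 1 without the 33.3% dimmest probe sets, 9 with array weights, 58 with all 18 groups and 0 with those 10 arrays alone; leaving out 1 rat gave 1 to 25 (25, 6, 4 and 4 without 1511, 1512, 1513 and 1515; 1 without 1506, 1507, 1508, 1509 or 1514). The difference between series had 0 or 1 (1 without 1009, 1506, 1015, 1512 or 1515). The phenobarbital count of 99 became 51 under median scaling, 298 with all 18 groups and 42 without the series term, and 63 (without 4509) to 123; PCN had 423 under median scaling, 767 with all 18 groups, 406 without the series term and 461 to 558 with 1 rat left out. Vehicle minus phenobarbital had 95 under median scaling, 175 with all 18 groups and 110 to 164 with 1 rat left out. Vehicle minus PCN had 34 under median scaling, 99 with array weights and 45 to 87 with 1 rat left out. The causes were not tested. No paired analysis was possible because each rat number names 1 rat and the groups compared share none. Of 37 named genes called, 20 were called in every alternative run, 17 were lost in at least 1 (Pim3, Ddc, Fdps and Igfbp2 in over 15 of 30) and no called difference changed sign. Called list members fell from 6 to 3 for cholesterol and from 1 to 0 for complement, the growth hormone axis and phase 1 enzymes under median scaling; counts without rat 1012 were added after seeing the data. Depth is not given for arrays; genes near the floor, such as Abcb1b, have differences that depend on the pseudocount (0.21 to 2.44).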

Other observations

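Genes outside the pathways described were called in small numbers and were named by the size of their difference. Pim3, a serine/threonine kinase, went from 4.46 to 8.07 (median 7.22) after 1 dose to 7.50 to 8.51 (median 8.11) after 5 doses, a rise of 1.45 ± 0.36 (adjusted p 0.043, limma) that was not called in 20 of 30 alternatives. Ddc, the aromatic amino acid decarboxylase, went from 7.14 to 8.45 (median 7.76) to 4.62 to 7.51 (median 6.52), a difference of -1.47 ± 0.36 (adjusted p 0.039, limma), not called in 17 of 30. Igfbp2, a binding protein of insulin-like growth factors, rose by 0.96 ± 0.24 (adjusted p 0.0495, limma), not called in 23 of 30, and its relative Igfbp1 was at 0.36 with an adjusted p of 0.80 (limma).

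Car3, a male-biased carbonic anhydrase, was lower in both series, whose levels were far apart, and was called within 10xx rats (-0.82, adjusted p 0.028) but not within 15xx rats (-0.72, adjusted p 0.14, limma). It lay between 11.93 and 12.34 in 10xx rats after 1 dose and between 10.85 and 11.69 after 5 doses, and, in 15xx rats, between 8.05 and 9 after 1 dose and between 7.49 and 8.09 after 5. The 10xx rats did not overlap and the 15xx rats did, and the difference over both was -0.77 ± 0.12 (adjusted p 0.0023, limma); without the series term it was not called. None of the other 8 measured male-biased genes was called, Cyp2c11 being at -0.14, and none of 9 female-biased genes. C4bpa, a complement inhibitor, fell by 0.31 on the log2 scale (SE 0.07). It was the single called member of 17 complement and coagulation genes (5.88%, beside 2.26% of all genes).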
